A study of Homo sapiens with 6 samples.

Results

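SLC2A5 encodes GLUT5, a fructose transporter of the plasma membrane. It was examined in H929 cells together with 9 further genes of sugar uptake and fructose metabolism. These 10 genes were chosen by name because SLC2A5 had shown a strong fall with Mi-2 in these same libraries, and they are 10 of the 62703 genes in the deposited tables. They comprise 7 members of the SLC2A family of sugar transporters (SLC2A5, SLC2A1, SLC2A3, SLC2A6, SLC2A8, SLC2A10 and SLC2A13) and 3 enzymes (KHK, SORD and AKR1B1). The fall of SLC2A5 is therefore described without a test, and the adjusted p-values given for other genes come from the fit over all genes.

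H929 (NCI-H929) is an established human multiple myeloma line, a cancer of plasma cells, labelled wild type. The treated cells received 1 µM of Mi-2, a compound that inhibits MALT1, a protease of NF-κB signalling, and the control cells received the solvent DMSO. Both were grown in RPMI-1640 with serum and collected after 24 h, and each treatment gave 3 libraries of paired-end RNA sequencing, numbered 1 to 3. The study's title concerns NF-κB signalling induced by BCMA and immunogenic cell death. All 6 sample titles carry the same biological replicate number, 1, and the labels do not state whether the libraries of a group were grown as separate cultures. The p-values therefore reflect only how far these samples differ, which can be technical.

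Most SLC2A proteins carry sugars across membranes down their concentration gradient, and they differ in substrate and location. Fructose that enters through GLUT5 can be phosphorylated by ketohexokinase, the product of KHK, to fructose 1-phosphate, which aldolase then splits. Cells can also make fructose from glucose in the polyol pathway, where aldose reductase (AKR1B1) forms sorbitol and sorbitol dehydrogenase (SORD) oxidises it to fructose. GLUT5 is best known from the small intestine, and it is also found in cells of the myeloid lineage.

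Total estimated counts ran from 21938900 to 23756700 in the Mi-2 libraries and from 19980700 to 22651600 in the DMSO libraries (to the nearest 100). All 9 plasma cell markers examined, such as JCHAIN, reached at least 1 TPM. Of these, SDC1 and CD38 were called lower with Mi-2 (-0.69 and -0.86 on the log2 scale, edgeR adjusted p = 0.018 and 0.0296), and MZB1 and IRF4 higher (0.70 and 0.35, edgeR adjusted p = 0.00576 and 0.0441). The 10 monocyte and macrophage markers, cells known for SLC2A5, summed to between 1.07 and 2.86 TPM in Mi-2 libraries and between 0.83 and 1.17 TPM in DMSO libraries, and TYROBP and AIF1 were listed at 0 in every library. Only S100A8 of these 10 reached 1 TPM in any library, with a mean of 0.933 TPM with Mi-2 and 0 with DMSO. Of 8 epithelial markers, KRT20 and CDX2 were listed at 0 throughout and EPCAM stayed below 1 TPM. KRT8, KRT18 and CDH1 reached up to 5.32, 17.83 and 2.05 TPM. The epithelial markers summed to between 19.1 and 23.1 TPM in Mi-2 libraries and between 9.27 and 15.3 TPM in DMSO libraries. Among them the keratin gene KRT18 was called higher in treated cells, by 1.07 on the log2 scale (edgeR adjusted p = 0.00853). The T-cell gene CD3E and the endothelial gene PECAM1 were detected at 29.3 to 46.5 and 58.87 to 102.06 TPM, both higher with Mi-2 (edgeR adjusted p = 0.018 and 0.0488), while CD3D, CD8A and COL1A2 were listed at 0 and VWF stayed at or below 0.01 TPM. The 5 erythroid and platelet markers summed to between 2.25 and 19.8 TPM in Mi-2 libraries and between 0.55 and 16.2 TPM in DMSO libraries. Any part of these markers in the results below was not tested. In bulk RNA, fewer cells with a transcript and less of it per cell cannot be told apart.

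The stretch before the start of SLC2A5 is shown because this gene had the largest fall among the 10, and that of SLC2A1, the widely used glucose transporter GLUT1, is shown for contrast. Each is the 250 bases before the RefSeq start site on GRCh38.p14, both on the minus strand of chromosome 1, SLC2A5 at chr1:9069636-9069885 and SLC2A1 at chr1:42958869-42959118. Capitals mark the TATA box letters TATAAA, the CCAAT box letters on either strand (ATTGG when reversed) and the NF-κB consensus.
SLC2A5: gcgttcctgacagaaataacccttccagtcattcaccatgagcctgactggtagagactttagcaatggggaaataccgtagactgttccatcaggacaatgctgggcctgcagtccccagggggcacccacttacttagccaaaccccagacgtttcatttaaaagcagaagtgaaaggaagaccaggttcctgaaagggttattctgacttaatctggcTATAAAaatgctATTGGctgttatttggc
SLC2A1: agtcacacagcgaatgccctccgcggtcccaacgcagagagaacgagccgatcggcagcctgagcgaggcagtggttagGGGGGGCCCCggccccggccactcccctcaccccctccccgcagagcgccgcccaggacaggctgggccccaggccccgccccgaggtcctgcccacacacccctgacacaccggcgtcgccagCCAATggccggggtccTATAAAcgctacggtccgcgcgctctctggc

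The SLC2A5 window was 46.8% G and C and held 3 CG dinucleotides, against 72.4% and 24 in the SLC2A1 window. Of 35114 RefSeq promoter windows of the same length, 25.5% had a lower G and C content than that of SLC2A5, and 84.6% had a lower one than that of SLC2A1. The SLC2A5 window held TATAAA beginning 29 bases before the start and ATTGG beginning 17 bases before it, as seen in the capitals. The SLC2A1 window held both boxes too, TATAAA beginning 31 bases and CCAAT beginning 47 bases before its start. Windows with TATAAA on either strand made up 10.7% of all, and those with CCAAT on either strand 32%. The GC box letters GGGCGG, present in 42.6% of windows, were absent from that of SLC2A5 on both strands and occurred 2 times in that of SLC2A1. No match to the NF-κB consensus (9.96% of windows) or to the E-box letters CACGTG (6.35%) lay in the SLC2A5 window, which says only that these letters are not in these 250 bases. SLC2A1 had 1 match to the NF-κB consensus, the run of G and C in capitals. Windows were found for 7 of the 10 genes, and those of SLC2A6, SLC2A8, SLC2A10 and SLC2A13 had between 65.2 and 76.8% G and C. The 2 RefSeq windows of AKR1B1 had 68.0 and 50.8%. The RefSeq start of SLC2A5, at 9069635, lies inside the GENCODE release 29 gene body, which extends from 9035107 to 9088478, so transcripts with other starts are annotated too.

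Among the listed transporters, SLC2A5 showed the large fall by which the list was chosen. It had 74.9, 56.5 and 84.1 CPM (counts scaled to library size by TMM) in Mi-2 libraries 1, 2 and 3, against 395, 247 and 344 CPM in DMSO libraries 1, 2 and 3. The highest Mi-2 library was below the lowest DMSO library by a wide margin, so the groups did not overlap. The estimated counts behind these values were 1650, 1310 and 2006 with Mi-2 and 7952, 5580 and 7467 with DMSO. The means were 71.8 ± 14.1 CPM with Mi-2 and 329 ± 75.5 CPM with DMSO (SD, n = 3 each), and the log2 fold change was -2.19 ± 0.19 (SE). DMSO library 2 was the lowest of its group and Mi-2 library 2 the lowest of its own.

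On the TPM scale, which corrects for gene length and allows genes to be compared, SLC2A5 had 25.17, 20.54 and 30.05 TPM in Mi-2 libraries 1, 2 and 3, against 135.97, 93.92 and 108.67 TPM in DMSO libraries 1, 2 and 3. In the DMSO libraries it ranked between 879th and 1341st of all genes by TPM, and in the Mi-2 libraries between 3726th and 5045th. It was the most abundant SLC2A transcript in every library. Among the 879 tested genes with an average CPM at least that of SLC2A5, none had a more negative log2 fold change. Over all 16082 tested genes it ranked 13th in order of fall, behind genes of lower average CPM. Both ranks of its fall are description only, since SLC2A5 was chosen for that fall and the CPM cut is its own average.

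**Figure D1:**
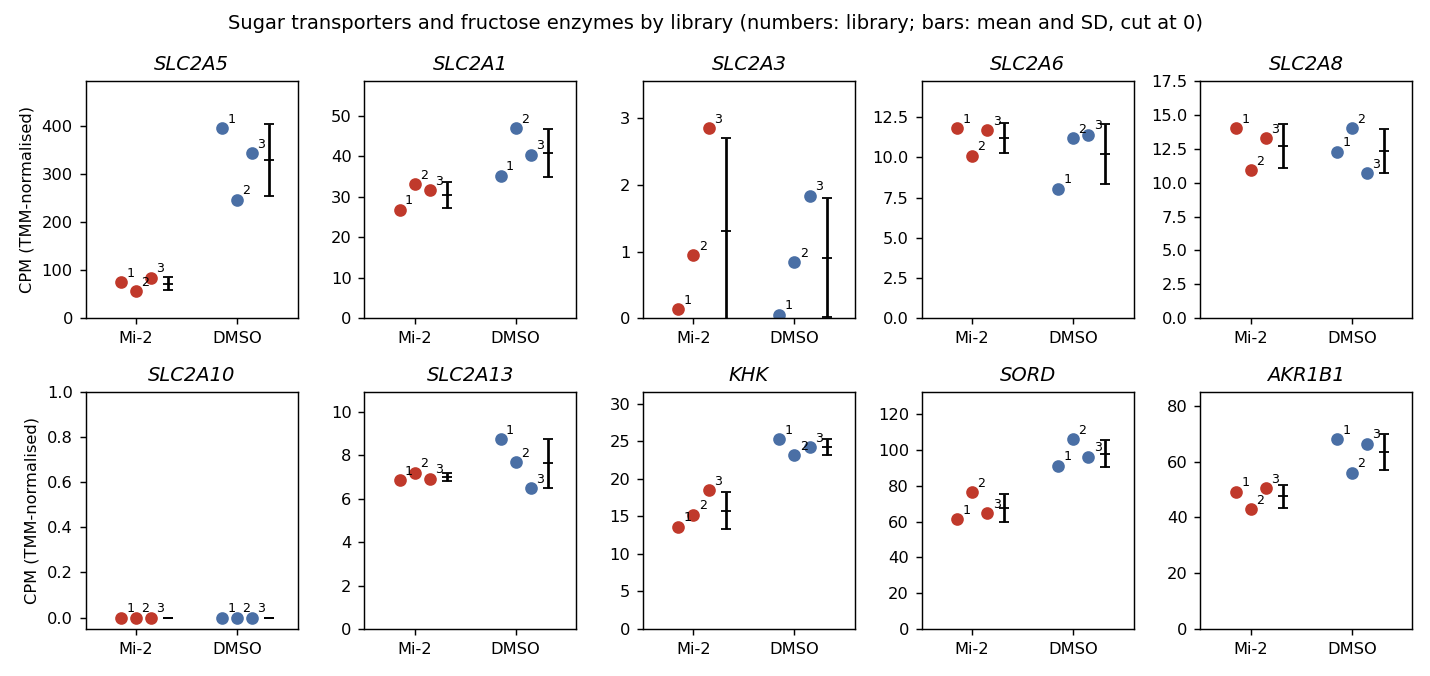
CPM of each of the 10 genes in the Mi-2 libraries (red) and the DMSO libraries (blue), 1 point per library with its number, with the mean and SD (n = 3, bars cut at 0) beside each group; every panel has its own axis. SLC2A5, SLC2A1, KHK, SORD and AKR1B1 show groups that do not overlap, SLC2A3, SLC2A6, SLC2A8 and SLC2A13 show groups that do, and SLC2A10 is at 0.

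None of the other transporters on the list passed the threshold. SLC2A1 had 26.8, 33.1 and 31.6 CPM in Mi-2 libraries 1, 2 and 3, against 35.2, 46.9 and 40.4 CPM in DMSO libraries 1, 2 and 3. The Mi-2 values lay just below the DMSO values, with little between the highest of one group and the lowest of the other. The log2 fold change was -0.42 ± 0.13, which did not pass (edgeR adjusted p = 0.0613). On the TPM scale the SLC2A1 groups overlapped, at 15.73, 17.33 and 24.63 TPM with Mi-2 and 18.78, 28.04 and 23.47 TPM with DMSO. SLC2A1 was called lower by DESeq2 (adjusted p = 0.0249), by edgeR without a filter on low counts (adjusted p = 0.00616) and in edgeR without DMSO library 1 (adjusted p = 0.0402). It was further from the threshold in limma on log2(TPM + 1), at -0.28 (adjusted p = 0.46). The same held in edgeR without Mi-2 library 1, DMSO library 2 or DMSO library 3 (adjusted p = 0.214, 0.217 and 0.125).

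SLC2A6 and SLC2A8 encode GLUT6 and GLUT8, which lie mainly on membranes inside the cell. SLC2A6 had 11.8, 10.1 and 11.7 CPM in Mi-2 libraries 1, 2 and 3, against 8.05, 11.2 and 11.4 CPM in DMSO libraries 1, 2 and 3. SLC2A8 had 14.0, 10.9 and 13.3 CPM in Mi-2 libraries 1, 2 and 3, against 12.3, 14.0 and 10.7 CPM in DMSO libraries 1, 2 and 3. In both genes the groups overlapped and the change was smaller than its standard error (0.13 ± 0.16 and 0.04 ± 0.15, edgeR adjusted p = 0.645 and 0.888). SLC2A13, a transporter of myo-inositol with protons rather than of hexoses, had 6.85, 7.20 and 6.92 CPM with Mi-2 and 8.75, 7.69 and 6.5 CPM with DMSO. Its DMSO values spanned the Mi-2 values (-0.13 ± 0.16, edgeR adjusted p = 0.648).

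SLC2A3 encodes GLUT3, a glucose transporter with high affinity. It had 3, 22 and 68 estimated counts in Mi-2 libraries 1, 2 and 3, against 1.03, 19 and 40 in DMSO libraries 1, 2 and 3. The libraries numbered 1 were low and those numbered 3 high in both groups, and the groups overlapped. The log2 fold change of 0.52 had a standard error of 0.96 (edgeR adjusted p = 0.775), and it was -0.74 without Mi-2 library 3. SLC2A10 had no counts in any library, which allows up to 0.126 to 0.137 CPM per Mi-2 library and 0.132 to 0.15 CPM per DMSO library (3 counts, counting error only). It did not enter the fit, so 9 of the 10 genes were tested.

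Over the 14 genes SLC2A1 to SLC2A14, SLC2A5 made up a smaller share of the family's mRNA with Mi-2, while the sum of the other 13 differed little. The sum was 86.3, 73.8 and 90.8 TPM in Mi-2 libraries 1, 2 and 3, against 194.6, 159.3 and 164.9 TPM in DMSO libraries 1, 2 and 3. SLC2A5 made up 29.2, 27.8 and 33.1% of it in the Mi-2 libraries, against 69.9, 59.0 and 65.9% in the DMSO libraries. Without SLC2A5 the sum averaged 58.4 ± 4.41 TPM with Mi-2 and 60.1 ± 4.72 TPM with DMSO (SD, n = 3 each), a difference within the spread of either group. SLC2A1 averaged 22.9 ± 4.47% of the family with Mi-2 and 13.8 ± 3.99% with DMSO, and SLC2A11, which encodes GLUT11, 20.7 ± 3.19% and 8.62 ± 0.379%. These shares are tied to each other, since each library's shares add up to the whole, and the fall of SLC2A5 enters all of them.

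**Figure D2:**
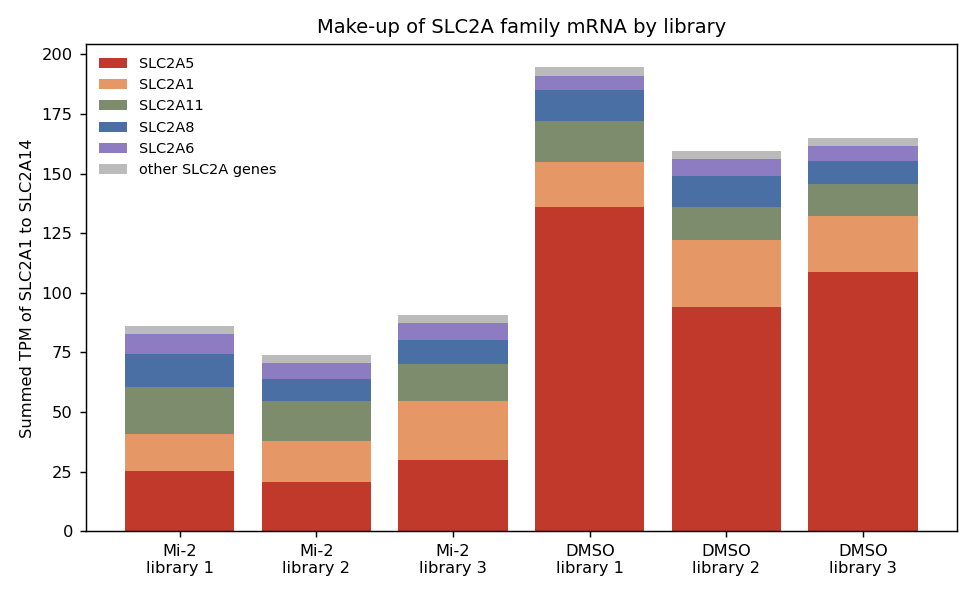
Stacked TPM of the SLC2A family in each Mi-2 library (left) and each DMSO library (right), with the 5 most abundant genes coloured and the rest in grey. The red SLC2A5 block is 20.54 to 30.05 TPM high in the Mi-2 libraries and 93.92 to 135.97 TPM high in the DMSO libraries, while the stack above it sums to 53.3 to 61.1 TPM and to 56.3 to 65.4 TPM.

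All 3 enzymes were lower with Mi-2, by less than SLC2A5. KHK lies on chromosome 2 at 27086747 to 27100772 (GRCh38, plus strand), SORD on chromosome 15 at 45023104 to 45077185 (plus) and AKR1B1 on chromosome 7 at 134442350 to 134459284 (minus). KHK, which phosphorylates fructose, had 13.6, 15.2 and 18.5 CPM in Mi-2 libraries 1, 2 and 3, against 25.3, 23.2 and 24.2 CPM in DMSO libraries 1, 2 and 3. The DMSO libraries were close together, the Mi-2 libraries more spread, and the groups did not overlap on the CPM or the TPM scale. The log2 fold change was -0.62 ± 0.13, or 1.53-fold lower (edgeR adjusted p = 0.018).

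SORD, the second enzyme of the polyol pathway, had 61.4, 76.5 and 64.5 CPM in Mi-2 libraries 1, 2 and 3, against 91.2, 106 and 96.3 CPM in DMSO libraries 1, 2 and 3. Again every Mi-2 library was below every DMSO library (-0.54 ± 0.10, or 1.45-fold lower, edgeR adjusted p = 0.0131). AKR1B1, the first enzyme of that pathway, had 49.2, 42.9 and 50.5 CPM in Mi-2 libraries 1, 2 and 3, against 68.1, 56.1 and 66.4 CPM in DMSO libraries 1, 2 and 3. Library 2 was the lowest of each group, and the groups did not overlap (-0.42 ± 0.10, or 1.34-fold lower, edgeR adjusted p = 0.0314). On the TPM scale AKR1B1 averaged 59.7 ± 6.86 TPM with Mi-2 and 82.9 ± 8.95 TPM with DMSO, SORD 21.7 ± 3.17 and 29.2 ± 0.793 TPM, and KHK 8.97 ± 1.20 and 13.3 ± 1.01 TPM (SD, n = 3 each).

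Of the 8 tested genes other than SLC2A5, 3 were called lower and none higher at an adjusted p under 0.05. Over all tested genes 6.03% were called lower, 5.02% higher and 11% in either direction, and since the list was drawn up with results of this comparison known, nothing is read from the count. On the CPM scale the 2 groups were separate for 4 of the 8, against 32.3% of all tested genes. Their median log2 fold change was -0.27, against 0.00 over all tested genes. Limma on log2(TPM + 1) called none of them, with 3 at an unadjusted p under 0.05 (KHK, SORD and AKR1B1 had adjusted p of 0.0628, 0.0913 and 0.0717), and edgeR without Mi-2 library 1 also called none, with 4 at an unadjusted p under 0.05. In that edgeR fit KHK, SORD and AKR1B1 had adjusted p of 0.0718, 0.0617 and 0.0872. KHK also missed the threshold when Mi-2 library 2, DMSO library 2 or DMSO library 3 was left out (highest edgeR adjusted p of these 0.0554). SORD did so without DMSO library 2 (0.0581), and AKR1B1 without Mi-2 library 2, DMSO library 1 or DMSO library 3 (highest 0.107).

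Some reads of these genes could also belong to others. In the GENCODE 29 transcripts, none of the 75-base windows of SLC2A5 occurred in another gene on either strand. For SORD, 23.5% of such windows also occurred in its copy SORD2P, which had at most 1.29 CPM in any library under either of its gene IDs. For KHK, 11.3% matched CGREF1, a gene of the opposite strand that overlaps it. Whether reads were assigned by strand is not stated in the labels. CGREF1 had 6.26, 9.10 and 9.60 CPM in Mi-2 libraries 1, 2 and 3, against 9.69, 9.28 and 10.6 CPM in DMSO libraries 1, 2 and 3. For SLC2A3, 8.11% occurred in SLC2A14, which had 1 count over all 6 libraries, AKR1B1 shared 0.43% with other genes, and SLC2A1 shared 1.11% with SLC2A1-AS1. How reads were divided among such genes was not tested.

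**Figure D3:**
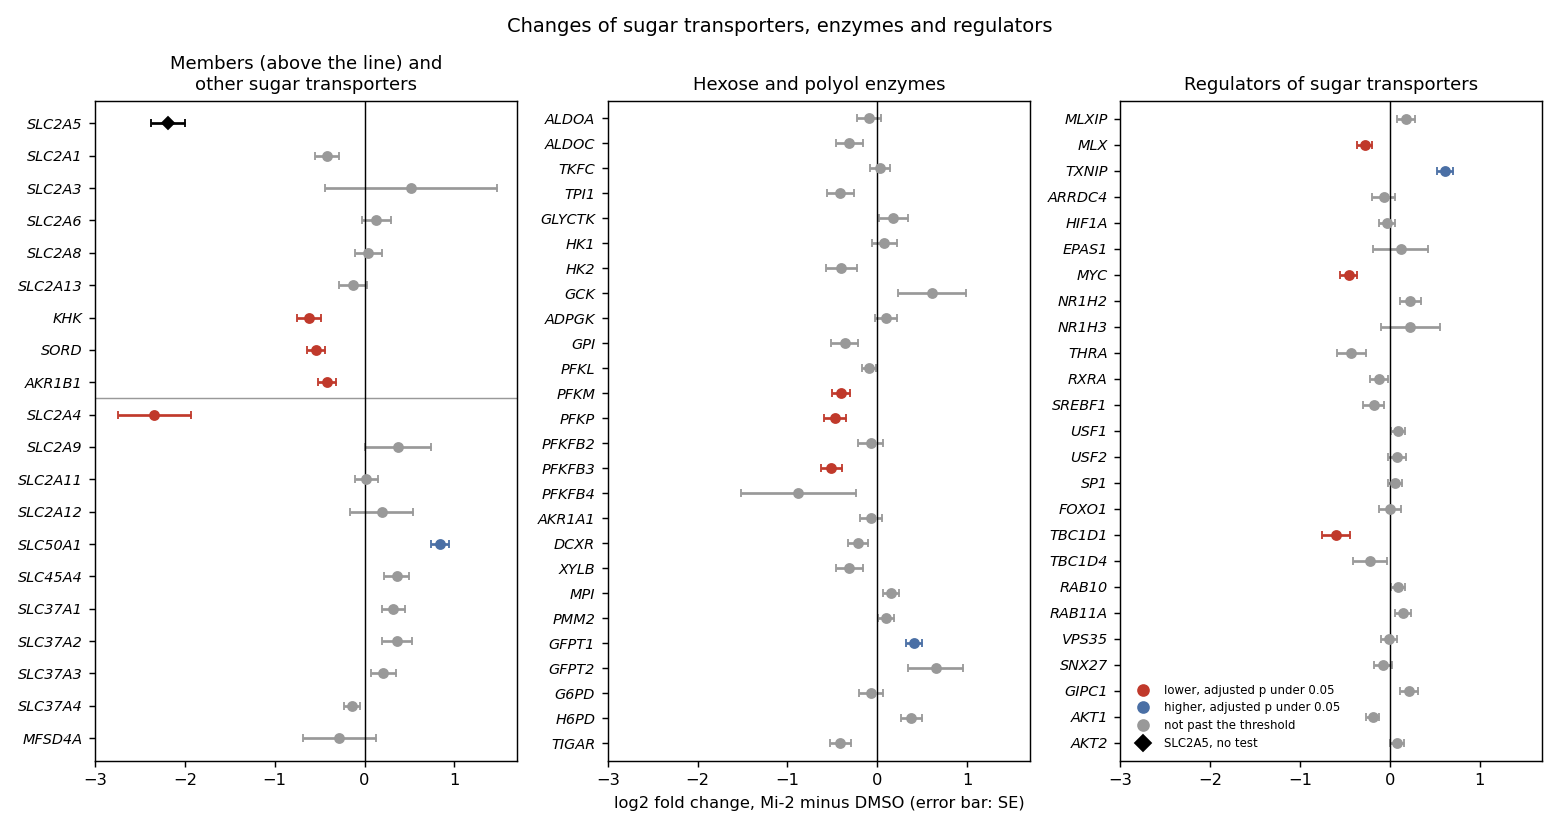
Log2 fold changes (Mi-2 minus DMSO, with SE) of the tested genes among the 10 and the other sugar transporters (left), of hexose and polyol enzymes (middle) and of regulators (right); red is called lower, blue called higher and grey not called, and the black diamond is SLC2A5 with no test. SLC2A5 (-2.19) and SLC2A4 (-2.34) stand far to the left of the rest.

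Among the other sugar transporters, 11 of 22 could be tested, of which 1 was called higher and 1 lower, with a median of 0.21. The shares over all tested genes were 5.02% higher and 6.03% lower, and nothing is read from the count. SLC50A1 encodes SWEET1, a sugar channel. It had 164, 188 and 179 CPM in Mi-2 libraries 1, 2 and 3, against 90.7, 94.8 and 110 CPM in DMSO libraries 1, 2 and 3. It was well separated and higher with Mi-2 (0.84 ± 0.10, edgeR adjusted p = 0.00244), and at 226 TPM with Mi-2 and 129 TPM with DMSO its mean was above that of every SLC2A gene, although DMSO library 1 had more SLC2A5 (135.97 TPM) than SLC50A1 (121.55 TPM). SLC2A4, which encodes the insulin-responsive glucose transporter GLUT4, is named here after its values were seen, since its level was low. It had 0.408, 0.259 and 0.252 CPM in Mi-2 libraries 1, 2 and 3, against 1.14, 2.12 and 1.43 CPM in DMSO libraries 1, 2 and 3. Its fall (-2.34 ± 0.41, edgeR adjusted p = 0.00972) rests on 6 to 9 counts per Mi-2 library and 23 to 48 per DMSO library. SLC2A11 was level (27.9, 20.7 and 22.9 CPM with Mi-2, against 25.8, 21.7 and 23.1 CPM with DMSO, edgeR adjusted p = 0.954). SLC2A2 and SLC2A7 had no counts in any library, and SLC2A7 is the neighbour of SLC2A5 on the chromosome, 8.76 kb away.

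Among hexose and polyol enzymes, 26 of 34 could be tested, of which 1 was called higher and 3 lower, with a median of -0.08. The share called lower over all tested genes was 6.03%, and 5.02% were called higher. PFKP and PFKM, called lower, encode subunits of the glycolytic enzyme phosphofructokinase (-0.47 ± 0.12 and -0.40 ± 0.10, edgeR adjusted p = 0.0359 and 0.0375), and PFKFB3 makes its activator fructose 2,6-bisphosphate (-0.51 ± 0.12, edgeR adjusted p = 0.0266). PFKP averaged 151 TPM with Mi-2 and 221 TPM with DMSO, while the third subunit gene, PFKL, had -0.09 ± 0.08 (edgeR adjusted p = 0.515). GFPT1, which takes fructose 6-phosphate into the hexosamine pathway, rose (0.41 ± 0.09, edgeR adjusted p = 0.0233), with 243, 229 and 201 CPM in Mi-2 libraries 1, 2 and 3, against 177, 161 and 168 CPM in DMSO libraries 1, 2 and 3. The steps after KHK did not pass: TKFC, the triokinase of fructose breakdown, had 0.03 ± 0.11, ALDOA -0.09 ± 0.13 and ALDOC -0.31 ± 0.15. Of the hexokinases, HK2 had -0.40 ± 0.17 (edgeR adjusted p = 0.165) and HK1 0.08 ± 0.14 (edgeR adjusted p = 0.758). The 3 lower calls were also lost in each of the limma fits on TPM. None of the enzymes was called without Mi-2 library 1, DMSO library 2 or DMSO library 3.

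Among regulators of sugar transporters, 25 of 28 could be tested, of which 1 was called higher and 3 lower, with a median of 0.00. Over all tested genes 5.02% were called higher and 6.03% lower, and nothing is read from the count. TXNIP, an arrestin-like protein known to lower glucose uptake by removing GLUT1 from the surface, rose. It had 448, 511 and 430 CPM in Mi-2 libraries 1, 2 and 3, against 309, 313 and 288 CPM in DMSO libraries 1, 2 and 3, which did not overlap (0.61 ± 0.09, edgeR adjusted p = 0.00595). MYC, a transcription factor with many metabolic targets, fell (-0.46 ± 0.10, edgeR adjusted p = 0.0196). TBC1D1, which restrains the movement of GLUT4 to the surface, and MLX, the partner of the glucose-sensing factors MondoA and ChREBP, were called lower (-0.60 ± 0.16 and -0.28 ± 0.08, edgeR adjusted p = 0.0457 and 0.0432). MLXIP, which encodes MondoA, had 0.18 ± 0.10 (edgeR adjusted p = 0.253), and ARRDC4, a relative of TXNIP, -0.07 ± 0.13 (edgeR adjusted p = 0.788). Without Mi-2 library 1, Mi-2 library 2, DMSO library 2 or DMSO library 3, only TXNIP of these was called. MLX was not called without any single library (edgeR adjusted p = 0.0528 to 0.155), nor with upper-quartile scaling (0.0517) or no filter on low counts (0.0661). TBC1D1 was not called with upper-quartile scaling either (edgeR adjusted p = 0.058). Limma on log2(TPM + 1) called neither gene (adjusted p = 0.107 for MLX and 0.523 for TBC1D1).

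Of the 8 tested genes around SLC2A5, 1 was called, with a smaller fall, against 11% of all tested genes called in either direction. Within 500 kb of the gene on chromosome 1, 8 of 30 annotated genes could be tested, none of them called higher, with a median of -0.04. The nearest tested gene, GPR157, lies 11.8 kb away and had 11.1, 12.8 and 11.7 CPM in Mi-2 libraries 1, 2 and 3, against 12.5, 15.6 and 11.3 CPM in DMSO libraries 1, 2 and 3. Its groups overlapped (-0.15 ± 0.15, edgeR adjusted p = 0.57). ENO1, which encodes the glycolytic enzyme enolase and lies 156 kb away, was called lower (-0.46 ± 0.11, edgeR adjusted p = 0.0284), though not without Mi-2 library 1, DMSO library 2 or DMSO library 3. On the other side, H6PD, the hexose 6-phosphate dehydrogenase of the endoplasmic reticulum, had 0.38 ± 0.12 (edgeR adjusted p = 0.0665) and SPSB1 0.46 ± 0.14 (edgeR adjusted p = 0.06). The RNA genes MIR34AHG and LNCTAM34A, which overlap on opposite strands, had -0.28 ± 0.19 and 0.25 ± 0.44.

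**Figure D4:**
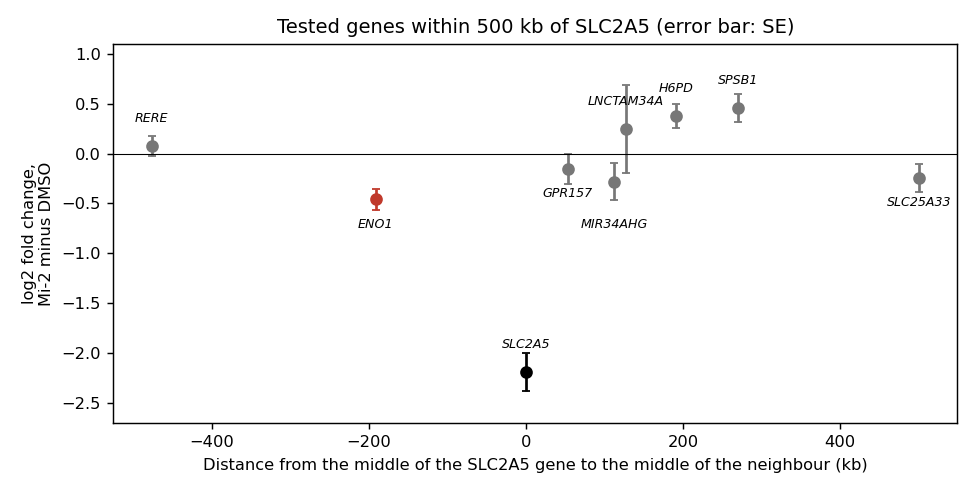
Log2 fold change (Mi-2 minus DMSO, with SE) of the tested genes within 500 kb of SLC2A5 against the distance in kb between gene middles. SLC2A5 (black) is at -2.19, ENO1 (red, called lower) is at -0.46, and the other 7 neighbours lie between -0.28 and 0.46.

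Genes whose profile over the 6 libraries was most like that of SLC2A5 were found by the root mean square difference in log2 CPM, after each gene was centred on its own mean. The nearest was STS, which encodes steroid sulfatase, with a difference of 0.38, among 10893 genes compared. It was followed by PHLDA1 (0.40), NAPSA (0.42), TERT (0.45), the catalytic subunit of telomerase, and LCAT (0.47), an enzyme of cholesterol transport. STS had 28.2, 28.5 and 36.7 CPM in Mi-2 libraries 1, 2 and 3, against 87.5, 83.1 and 107 CPM in DMSO libraries 1, 2 and 3. NAPSA, an aspartic protease gene, had 25.1, 18.1 and 18.1 CPM in Mi-2 libraries 1, 2 and 3, against 69.8, 46.6 and 54.8 CPM in DMSO libraries 1, 2 and 3, with DMSO library 1 the highest and DMSO library 2 the lowest, as in SLC2A5. This measure is set mostly by the size of the change between the groups, so it picks genes with a large fall.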

How the data were processed

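RNA was extracted with TRIzol and sequenced on a NovaSeq instrument, per the labels' protocols. The submitters' processing notes name GRCh38.p13, RSEM 1.3.3, StringTie 2.1.0, HISAT2 2.1.0 and fastp 0.19.5, without roles. The authors deposited estimated counts per gene, partly fractional and not scaled between libraries, and TPM, scaled by the length of each gene and the size of each library. The labels state neither strand nor RNA selection.

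The members and lists were chosen with earlier results of these data known. Estimated counts were rounded, filtered with filterByExpr (minimum count 10, minimum total 15) and scaled by TMM. Then edgeR 4.0.16 in R 4.3.3 fitted all 6 libraries and tested the treatment by quasi-likelihood, with Benjamini-Hochberg adjustment over 16082 genes and a threshold of 0.05. The fit was also run on counts simulated from its own estimates of spread with 200 genes changed. That cannot show whether libraries were separate cultures or paired. A standard error is the log2 fold change divided by the root of F. The biological coefficient of variation was 14.2%. Between libraries of a group, chi-square per degree of freedom was 16.6 to 23.5, so none was a copy. Symbols came from a table of gene IDs, coordinates from GENCODE 29 on GRCh38, and promoters from RefSeq (GRCh38.p14).

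Named genes were the 10 members and, from each list, at most 4 called genes a direction (average log2 CPM 1 or more). The 6 nearest tested neighbours, genes sharing sequence with a member, and the 5 nearest profiles (average log2 CPM of at least 2) were named too. Genes given as not passing were named besides these, after their values were seen. Alternatives were other scalings, filters and tests (DESeq2 1.42.0, limma 3.58.1 with voom or on log2 TPM), a block for library number, and leaving out single libraries.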

Additional observations from a re-analysis of the deposited data

How the results depend on the processing

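The log2 fold change of SLC2A5 stayed between -2.36 and -2.04 in all alternatives, and the difference in its family share moved by less than the spread between libraries, also over the 7 listed transporters alone. Beside 1777 calls over all genes, edgeR without a filter called 2762, limma 610 on log2(TPM + 1) and 647 on log2(TPM + 0.1). Limma with no TPM filter called 0 of 31463 genes, though 3808 had an unadjusted p under 0.05; fits without a library called 518 to 1581. Calls among the 8 other members (3) were 0 in each of the TPM fits and 0 to 3 without a library. Other sugar transporters (2 calls) gave 1 with DESeq2, where SLC2A4 had no adjusted p, 1 and 1 in the filtered TPM fits, which leave SLC2A4 out, and 0 with no TPM filter. Hexose and polyol enzymes (4) gave 7 with DESeq2, 10 with no filter on counts, 1, 1 and 0 in the TPM fits and 0 to 4 without a library. Regulators (4) gave 2 with upper-quartile scaling, 2, 2 and 0 in the TPM fits and 1 to 3 without a library. Neighbours of SLC2A5 (1) gave 3 with DESeq2, 3 with no filter on counts, 0 with no TPM filter and 0 to 2 without a library. The causes were not tested.

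With the library number as a replicate block, 3826 genes were called, with 4 of the 8 other members (SLC2A1 besides the enzymes, adjusted p = 0.00482), 4 other sugar transporters, 11 enzymes and 3 neighbours. The numbers do not settle whether libraries were paired. Deviations from the group means correlated at 0.409, 0.0593 and 0.261 between libraries numbered 1, 2 and 3. Between libraries of unlike number the correlations ran from -0.326 to 0.0795. Like numbers thus correlated best for 1 and 3, whereas Mi-2 library 2 correlated slightly better with DMSO library 3 (0.0795) than with DMSO library 2.

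Uncalled values near 0 changed sign. SLC2A3 lay between -0.74 and 1.52 and SLC2A6 between -0.01 and 0.21 without a library. SLC2A8 had -0.07 on log2(TPM + 1), -0.08 on log2(TPM + 0.1), -0.07 with no TPM filter and -0.06 to 0.14 without a library. LNCTAM34A had -0.15 with no TPM filter. Counts were low for SLC2A3 (1.03 to 68 per library) and SLC2A4 (6 to 48).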

Other observations

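The ratio of estimated count to TPM follows the gene length that the TPM calculation used in a library. It was scaled by its median over 11619 genes and given as a percentage of each gene's own mean. For SLC2A1 it was 103, 112 and 74.3% in Mi-2 libraries 1, 2 and 3, against 112, 103 and 96.2% in DMSO libraries 1, 2 and 3. Its range of 38.1 percentage points was wider than that of 89.9% of the genes, whose median range was 12 points. Mi-2 library 3, with the low ratio, is the library whose SLC2A1 level overlaps the DMSO libraries on the TPM scale. For SLC2A5 the ratio was 106, 95.2 and 95.8% in the Mi-2 libraries, against 103, 95.3 and 105% in the DMSO libraries, a range of 10.7 points, and KHK and AKR1B1 ranged over 10.5 and 9.14 points.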
